A study of Mus musculus with 7 samples.

Results

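Immunoglobulin genes were followed in whole colon tumors, as the genes that GENCODE M21 (mouse build GRCm38) annotates as immunoglobulin constant genes (IG_C_gene) or variable genes (IG_V_gene). Of the 43346 genes of the count table, 223 met this rule, namely 10 constant genes and 213 V genes. The V genes comprised 113 heavy-chain (Ighv), 97 kappa (Igkv) and 3 lambda (Iglv) genes. Of the 223 genes, 170 had counts in at least 1 tumor, and 53 V genes had 0 counts in all 7 tumors. The lambda constant genes Iglc1, Iglc3 and Iglc4 had no row in the count table, so the lambda constant values rest on Iglc2 alone.

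The tumors came from 7 mice that had received a bone marrow (BM) transplant, 4 with Dnmt3a+/Δ BM, which the labels write as Dnmt3a(+/-) and call experimental clonal hematopoiesis, and 3 with Dnmt3a+/+ BM. All 7 recipients were then given 1 regimen for colitis-associated cancer (CAC), azoxymethane (AOM) at 10 mg/kg followed by 3 cycles of 3% dextran sulfate sodium (DSS). Per the methods, the donors were on a C57BL6/J background. All donors carried Mx1-Cre, an interferon-inducible Cre that acts in blood cells and in other tissues, and received poly(I:C). The recipients were congenic CD45.1 mice and themselves wild type. The labels give a recipient age of 8 wk, while the methods give a younger age at transplantation. The labels name 2 transplantation experiments. Replicates 1 and 2 of either genotype were from BMT18, and all other tumors were from BMT8. Total counts ranged from 38472738 to 64314999 per tumor.

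An antibody is made of paired heavy and light chains, each with a variable part, assembled by joining 1 V gene to short D or J segments, and a constant part. The heavy-chain constant gene sets the class: mature B cells start with IgM and IgD and can switch to IgG, IgE or IgA. In the gut wall, plasma cells secrete mostly IgA, joined into dimers by the J chain and carried across the epithelium by the polymeric immunoglobulin receptor.

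Germline sequences of V genes that led a tumor, and of the main lambda V gene, are given first, since the V results turn on them. Each is the last 300 bases of the V exon, from the annotated transcripts on GRCm38, written 5′ to 3′ along the gene's own strand. The capitals mark the codon of the conserved second cysteine, after which the V gene is joined to the next segment. Ighv5-17 (chr12:113859149-113859448, minus strand), Ighv1-64 (chr12:115507545-115507844, minus strand) and Ighv1-26 (chr12:114788372-114788671, minus strand) were each the leading heavy-chain V gene of a tumor, and Iglv1 (chr16:19085017-19085316, minus strand) held most lambda V counts.
Ighv5-17: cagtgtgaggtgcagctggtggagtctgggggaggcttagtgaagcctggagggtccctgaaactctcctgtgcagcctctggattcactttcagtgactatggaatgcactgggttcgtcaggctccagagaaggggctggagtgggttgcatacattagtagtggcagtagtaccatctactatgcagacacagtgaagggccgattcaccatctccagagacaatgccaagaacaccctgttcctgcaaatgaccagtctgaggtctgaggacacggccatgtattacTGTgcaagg
Ighv1-64: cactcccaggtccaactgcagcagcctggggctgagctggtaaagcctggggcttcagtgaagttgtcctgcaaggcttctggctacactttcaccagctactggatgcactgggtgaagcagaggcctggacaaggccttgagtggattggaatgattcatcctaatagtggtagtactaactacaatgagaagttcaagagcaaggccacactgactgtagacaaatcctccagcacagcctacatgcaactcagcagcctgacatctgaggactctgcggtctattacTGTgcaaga
Ighv1-26: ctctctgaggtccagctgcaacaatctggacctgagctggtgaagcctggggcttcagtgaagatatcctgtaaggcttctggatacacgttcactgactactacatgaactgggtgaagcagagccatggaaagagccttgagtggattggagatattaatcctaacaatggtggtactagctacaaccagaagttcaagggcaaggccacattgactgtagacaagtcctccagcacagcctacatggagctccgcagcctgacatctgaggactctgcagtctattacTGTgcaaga
Iglv1: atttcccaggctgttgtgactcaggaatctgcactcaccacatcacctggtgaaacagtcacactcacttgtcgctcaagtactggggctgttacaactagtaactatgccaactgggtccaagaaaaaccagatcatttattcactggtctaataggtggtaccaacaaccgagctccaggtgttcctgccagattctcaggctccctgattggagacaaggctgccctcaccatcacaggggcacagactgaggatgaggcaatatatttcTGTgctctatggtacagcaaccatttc

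Igkv1-117 (chr6:68121528-68121827, plus strand) and Igkv1-110 (chr6:68270968-68271267, plus strand), which led or shared the lead among kappa V genes in 3 of the 4 Dnmt3a+/Δ tumors, are near neighbours in sequence. In Dnmt3a+/Δ replicate 4 the lead was a tie at 3 counts each, of 15 kappa V counts. The pair differs at 10 of 313 bases of the V exon, an identity of 96.8%. Here the capitals mark the differing bases, all of which fall in the 300 bases shown.
Igkv1-117: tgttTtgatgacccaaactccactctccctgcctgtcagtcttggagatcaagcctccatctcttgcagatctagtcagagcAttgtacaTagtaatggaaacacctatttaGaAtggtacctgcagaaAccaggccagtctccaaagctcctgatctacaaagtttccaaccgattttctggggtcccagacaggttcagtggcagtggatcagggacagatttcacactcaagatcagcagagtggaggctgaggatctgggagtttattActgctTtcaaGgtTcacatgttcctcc
Igkv1-110: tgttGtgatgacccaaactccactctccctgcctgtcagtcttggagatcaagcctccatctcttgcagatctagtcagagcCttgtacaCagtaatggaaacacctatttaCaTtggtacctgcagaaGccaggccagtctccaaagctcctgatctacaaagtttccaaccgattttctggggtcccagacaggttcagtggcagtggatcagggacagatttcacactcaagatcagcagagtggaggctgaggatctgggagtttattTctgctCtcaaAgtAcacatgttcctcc

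Immunoglobulin genes made up a small part of each tumor's RNA, and their level ranged over 424.9-fold between tumors. In Dnmt3a+/+ replicates 1 to 3, they held 5953, 461 and 119 counts, which are 0.0148%, 0.000717% and 0.000308% of all counts. With Dnmt3a+/Δ BM, replicates 1 to 4 held 2437, 53235, 2607 and 627 counts, or 0.00611%, 0.131%, 0.00583% and 0.00163%. Dnmt3a+/Δ replicate 2 was highest and Dnmt3a+/+ replicate 3 lowest, and the 2 groups overlapped. The mean share was 0.00527% ± 0.00824 (SD, n = 3) in controls and 0.0361% ± 0.0631 (SD, n = 4) in Dnmt3a+/Δ tumors. The order of the means rests on 1 tumor: without Dnmt3a+/Δ replicate 2, the difference of 0.0308 percentage points turned to -0.000742. V genes held between 4.202% and 16.6% of the immunoglobulin counts of a tumor. In whole tumors, fewer cells of a type and less RNA per cell cannot be told apart.

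The tumors carried the RNA of colon epithelium, with a summed level of Epcam, Krt8, Krt20, Cdh1, Cdx2 and Lgals4 between 14790 and 26250 CPM (counts scaled to a common library size) with Dnmt3a+/+ BM and between 7587 and 16730 CPM with Dnmt3a+/Δ BM. The library sizes behind CPM were scaled by TMM. Dnmt3a itself lay between 20.2 and 24.3 CPM with Dnmt3a+/+ BM and between 22.0 and 43.0 CPM with Dnmt3a+/Δ BM, in tissue that mixes graft and host cells. Dnmt3a+/Δ replicate 2 also had the highest values of the fibroblast list (up to 626.8 CPM summed), the endothelial list (90.2 CPM) and the macrophage list (185.5 CPM), and the part of such cells in its immunoglobulin values was not tested.

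Igha, the constant gene of IgA (chr12:113254830-113260236, minus strand), was the most abundant immunoglobulin gene in every tumor by counts. It held 4388, 331 and 47 counts in Dnmt3a+/+ replicates 1 to 3, a level of 117.9, 5.17 and 1.44 CPM. In Dnmt3a+/Δ replicates 1 to 4 it held 1618, 40590, 1716 and 425 counts, a level of 40.4, 827, 34.9 and 11.5 CPM. Dnmt3a+/Δ replicate 2 and Dnmt3a+/+ replicate 1 were highest, and Dnmt3a+/+ replicates 2 and 3 lay below all other tumors. The log2 fold change was 2.46 ± 1.90 (SE; Dnmt3a+/Δ over Dnmt3a+/+, here and below), with a Benjamini-Hochberg adjusted p of 0.661 from edgeR's quasi-likelihood fit. Without Dnmt3a+/Δ replicate 2 it was -0.49, so neither the size nor the direction held without that tumor.

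Ighm, the constant gene of IgM (chr12:113418558-113422730, minus strand), was the 1 immunoglobulin gene among those tested whose level did not overlap between the groups. Its counts were 65, 40 and 46 in Dnmt3a+/+ replicates 1 to 3, a level of 1.75, 0.625 and 1.41 CPM. With Dnmt3a+/Δ BM they were 204, 171, 262 and 117, a level of 5.09, 3.48, 5.32 and 3.16 CPM. All 4 Dnmt3a+/Δ tumors thus lay above all 3 controls, and the tumor with the highest Igha was not the highest of the 4. The means were 4.27 ± 1.10 CPM (SD, n = 4) and 1.26 ± 0.575 CPM (SD, n = 3). The log2 fold change was 1.76 ± 0.45 (SE), with a Benjamini-Hochberg adjusted p of 0.361 from edgeR's quasi-likelihood fit and an unadjusted p of 0.00493, so Ighm was not called. DESeq2 called it, with a log2 fold change of 1.80 ± 0.43 (SE) and an adjusted p of 0.00487. That call was lost without Dnmt3a+/+ replicate 2 (DESeq2 adjusted p 0.0794) and without Dnmt3a+/Δ replicate 3 (DESeq2 adjusted p 0.0596). Within BMT18 alone, with 2 tumors per group, edgeR's log2 fold change was 1.87.

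Across the immunoglobulin genes, 11 had enough counts for the edgeR test, 6 constant and 5 V genes, and several of them passed this filter mainly through the high counts of Dnmt3a+/Δ replicate 2. With edgeR, 0 of the 11 were called, against 0.00% of the 15810 genes tested. An unadjusted p under 0.05 was reached by 1 of the 11, Ighm, while 5.83% of all genes tested reached it in the higher direction. Likewise, 1 of the 11 had groups without overlap in the higher direction, where 6.12% of all genes tested did. These 2 shares of 1 gene in 11 are near the background and are no result about immunoglobulin genes as a class. DESeq2 gave an adjusted p to 17 of the 223 immunoglobulin genes, 6 of them among the 11, and called 1, with 1.90% of the 15936 genes it tested called in either direction and 1.54% in the higher one. With the experiment as a further term in the model, a choice made for DESeq2 after seeing the data, it called 5 of 54, namely Ighm, Igkv1-110, Igkv2-137, Igkv5-43 and Ighv5-17, and 2.92% of all genes it tested. With that term edgeR called 0. DESeq2 with the term left 0 immunoglobulin genes with counts without a p-value, against 43 without the term. The V genes it then called had most of their counts in Dnmt3a+/Δ replicate 2. That tumor held 343 of 410 counts of Igkv1-110, 363 of 370 of Igkv2-137, 148 of 168 of Igkv5-43 and 364 of 391 of Ighv5-17.

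The IgG genes had few counts. Ighg1 held 18, 10 and 7 counts in the Dnmt3a+/+ tumors and 21, 216, 15 and 4 in the Dnmt3a+/Δ tumors. Ighg2b held 62, 14 and 6 against 68, 126, 21 and 1 counts. Both were highest in Dnmt3a+/Δ replicate 2, where Ighg1 reached 4.40 CPM and Ighg2b 2.57 CPM, and the groups overlapped for both. The log2 fold changes were 2.24 ± 1.27 (SE) for Ighg1 and 0.78 ± 1.28 (SE) for Ighg2b, with edgeR adjusted p of 0.547 and 0.866 after Benjamini-Hochberg adjustment. Without Dnmt3a+/Δ replicate 2 they were 0.18 and 0.08, and without Dnmt3a+/+ replicate 1 they were 2.84 and 2.53. Ighg2b also fell to 0.34 or 0.35 without Dnmt3a+/+ replicate 2 or 3. Ighg2c, the IgG2 gene that the C57BL/6 background carries in place of Ighg2a, held 2, 0 and 0 counts in the controls and 35, 39, 7 and 0 with Dnmt3a+/Δ BM. It was too low for the edgeR test, and DESeq2 gave it an adjusted p of 0.159. Ighg3 had at most 9 counts in any tumor. Reads can be split between the IgG genes by the counting: the coding sequences of Ighg2b and Ighg2c are 87.8% identical, and the other pairs of the 4 genes are between 76.7% and 78.8% identical.

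IgD and IgE were nearer to 0. Ighd, which naive B cells express together with Ighm, held 62 counts in Dnmt3a+/Δ replicate 3, 20 in Dnmt3a+/Δ replicate 1 and at most 3 in the other 5 tumors. Ighe held 6 counts in Dnmt3a+/+ replicate 1 and at most 3 elsewhere. In Dnmt3a+/Δ replicate 2, 0 of 41152 heavy-chain constant counts were Ighe, which allows a share of up to 0.00729%.

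**Figure D1:**
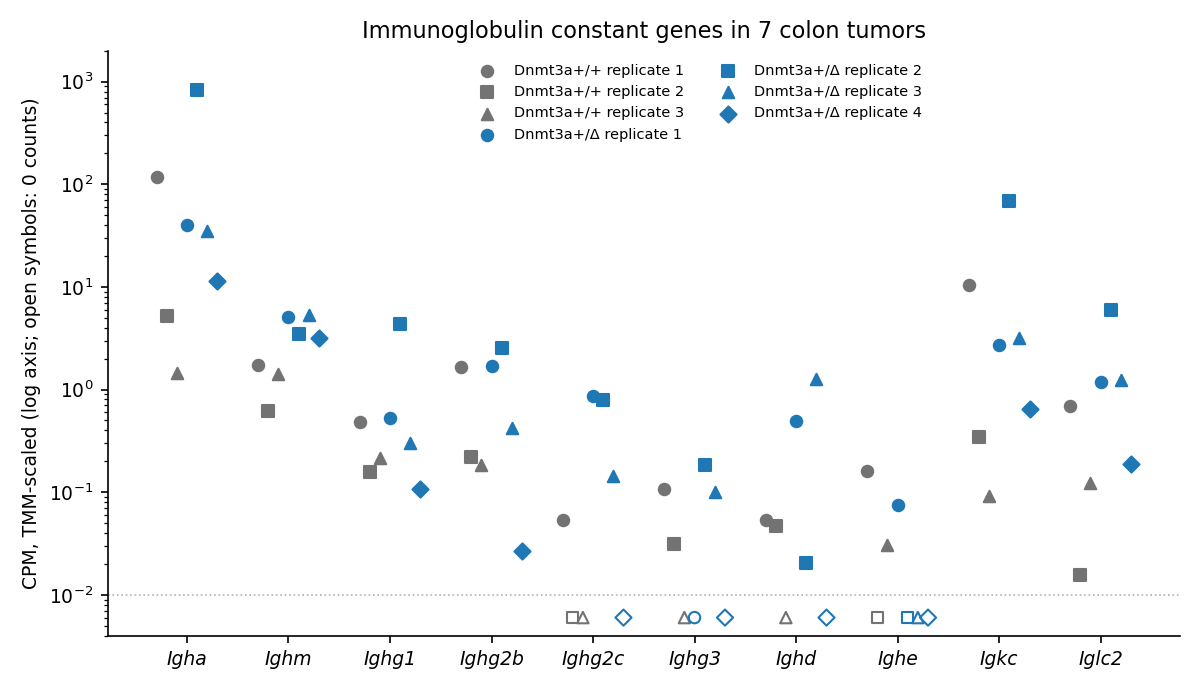
CPM (TMM-scaled, log axis) of the 10 constant genes in each tumor, grey for Dnmt3a+/+ BM and blue for Dnmt3a+/Δ BM, with 1 symbol per tumor and open symbols at the bottom for 0 counts. Dnmt3a+/Δ replicate 2 (blue square) is highest for Igha at 827 CPM and for Igkc at 68.5 CPM, while Ighm separates the blue from the grey symbols, between 3.16 and 5.32 CPM against 0.625 to 1.75 CPM.

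IgA held the majority of heavy-chain counts in 6 of the 7 tumors. As a share of all heavy-chain constant counts, Igha took 96.5%, 82.8% and 43.9% in Dnmt3a+/+ replicates 1 to 3, of 4547, 400 and 107 counts. In Dnmt3a+/Δ replicates 1 to 4 it took 82.2%, 98.6%, 82.2% and 77.7%, of 1969, 41152, 2088 and 547 counts. Dnmt3a+/+ replicate 3 stood apart with nearly equal IgA and IgM, 47 and 46 counts, and its Wilson 95% interval for the IgA share, 34.9% to 53.4%, lay below those of the other 6 tumors. The intervals and limits given here cover counting error only. The mean IgA share was 74.4% ± 27.3 (SD, n = 3) in controls and 85.2% ± 9.22 (SD, n = 4) in Dnmt3a+/Δ tumors. The difference of 10.8 percentage points was smaller than the spread of the controls (two-sided exact permutation test, p = 0.6). The smallest p that 4 tumors against 3 allow is 0.0286, and each p of the 6 shares tested is also given adjusted over the 6, here 0.755. Without Dnmt3a+/+ replicate 3, the difference turned to -4.45 percentage points.

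IgM took the second place in 5 of the 7 tumors. Its share was 1.43%, 10% and 43% in the Dnmt3a+/+ tumors and 10.4%, 0.416%, 12.5% and 21.4% in the Dnmt3a+/Δ tumors. The share was lowest in the 2 tumors where Igha was highest, and the ratio of Igha to Ighm counts ran from 1.02 in Dnmt3a+/+ replicate 3 to 237.4 in Dnmt3a+/Δ replicate 2. So the IgM share overlapped between the groups although the Ighm level did not. The means were 11.2% ± 8.62 (SD, n = 4) and 18.14% ± 21.9 (SD, n = 3; exact permutation test, p = 0.629, adjusted 0.755), and without Dnmt3a+/+ replicate 3 the difference of -6.96 percentage points turned to 5.46.

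The 4 IgG genes together took 1.89%, 6.5% and 12.2% of heavy-chain constant counts in the Dnmt3a+/+ tumors and 6.30%, 0.948%, 2.30% and 0.914% in the Dnmt3a+/Δ tumors. They exceeded IgM in Dnmt3a+/+ replicate 1 and Dnmt3a+/Δ replicate 2, the tumors with the most Igha. The means were 2.62% ± 2.54 (SD, n = 4) and 6.85% ± 5.14 (SD, n = 3), and the difference of -4.23 percentage points did not pass the exact permutation test (p = 0.229, adjusted 0.686). It was -6.71 without Dnmt3a+/+ replicate 1 and -1.58 without Dnmt3a+/+ replicate 3. Counts divided by exonic length moved IgA from 43.9% to 37.0% and IgM to 51.3% in Dnmt3a+/+ replicate 3, so that IgM came first there. That order depends on the length used. The exonic length is 2668 bp for Igha and 1886 bp for Ighm, but the coding sequence is shorter for Igha (1166 bp) than for Ighm (1427 bp).

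The kappa light chain followed Igha in level. Igkc, the kappa constant gene (chr6:70726435-70726966), held 390, 22 and 3 counts in Dnmt3a+/+ replicates 1 to 3 and 109, 3360, 156 and 24 counts in Dnmt3a+/Δ replicates 1 to 4. Its log2 fold change was 2.37 ± 1.95 (SE; edgeR adjusted p 0.683 after Benjamini-Hochberg adjustment) and turned to -0.70 without Dnmt3a+/Δ replicate 2. Per 100 Igha counts there were between 5.65 and 9.09 Igkc counts in all 7 tumors, although Igha itself ranged from 47 to 40590 counts. On a CPM per kilobase of exon scale, Igkc reached between 0.119 and 0.427 times the summed level of the heavy-chain constant genes.

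Iglc2, a lambda constant gene (chr16:19198396-19200351, minus strand), held 26, 1 and 4 counts in the Dnmt3a+/+ tumors and 48, 292, 61 and 7 in the Dnmt3a+/Δ tumors. Its log2 fold change was 2.96 ± 1.42 (SE; edgeR adjusted p 0.486 after Benjamini-Hochberg adjustment), and the groups overlapped. It was 1.71 without Dnmt3a+/Δ replicate 2 and 5.05 without Dnmt3a+/+ replicate 1. Since Iglc2 was the only lambda constant gene counted, the lambda share of constant counts need not stand for all lambda RNA. The lambda share of light-chain constant counts was 6.25%, 4.35% and 57.1% with Dnmt3a+/+ BM, where the last value rests on 4 of 7 counts and has a Wilson 95% interval from 25.1% to 84.2%. With Dnmt3a+/Δ BM it was 30.6%, 8%, 28.1% and 22.6%. Dnmt3a+/Δ replicates 1 and 3, at intervals of 23.9% to 38.2% and 22.6% to 34.4%, lay above Dnmt3a+/+ replicate 1 (4.30% to 9%) and Dnmt3a+/Δ replicate 2 (7.16% to 8.92%) beyond counting error. The group means, 22.3% ± 10.1 (SD, n = 4) and 22.6% ± 29.9 (SD, n = 3), did not differ beyond their spread (exact permutation test, p = 1, adjusted 1). Without Dnmt3a+/+ replicate 3, the difference of -0.265 percentage points turned to 17.0 (exact permutation test, p = 0.133).

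V genes gave another reading of lambda against kappa. The 3 lambda V genes took 12.1% of light-chain V counts in Dnmt3a+/+ replicate 1 (75 of 618), and 15.8% (30 of 190), 7.91% (401 of 5070) and 9.09% (17 of 187) in Dnmt3a+/Δ replicates 1 to 3. Fewer counts stood behind Dnmt3a+/+ replicate 2, at 15% (3 of 20), Dnmt3a+/+ replicate 3, at 0 of 1, and Dnmt3a+/Δ replicate 4, at 31.8% (7 of 22). By V genes, then, Dnmt3a+/Δ replicates 1 and 3 stood at 15.8% and 9.09%, where by constant genes they stood at 30.6% and 28.1%. In Dnmt3a+/+ replicates 1 and 2 and Dnmt3a+/Δ replicate 4 the V gene value was instead the higher of the pair. The constant gene shares count Iglc2 alone for lambda, so the V and constant readings need not cover the same lambda chains. Iglv1 held 486 of the 533 lambda V counts, Iglv2 held 38 and Iglv3 held 9. Iglv1 and Iglv2 are 97.0% identical, with 9 base differences over the V exon, so part of the Iglv2 counts can come from how reads were divided. In Dnmt3a+/Δ replicate 3, Iglv1 held 9 counts, Iglv2 held 5 and Iglv3 held 3, the least uneven split among the tumors with lambda V counts.

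**Figure D2:**
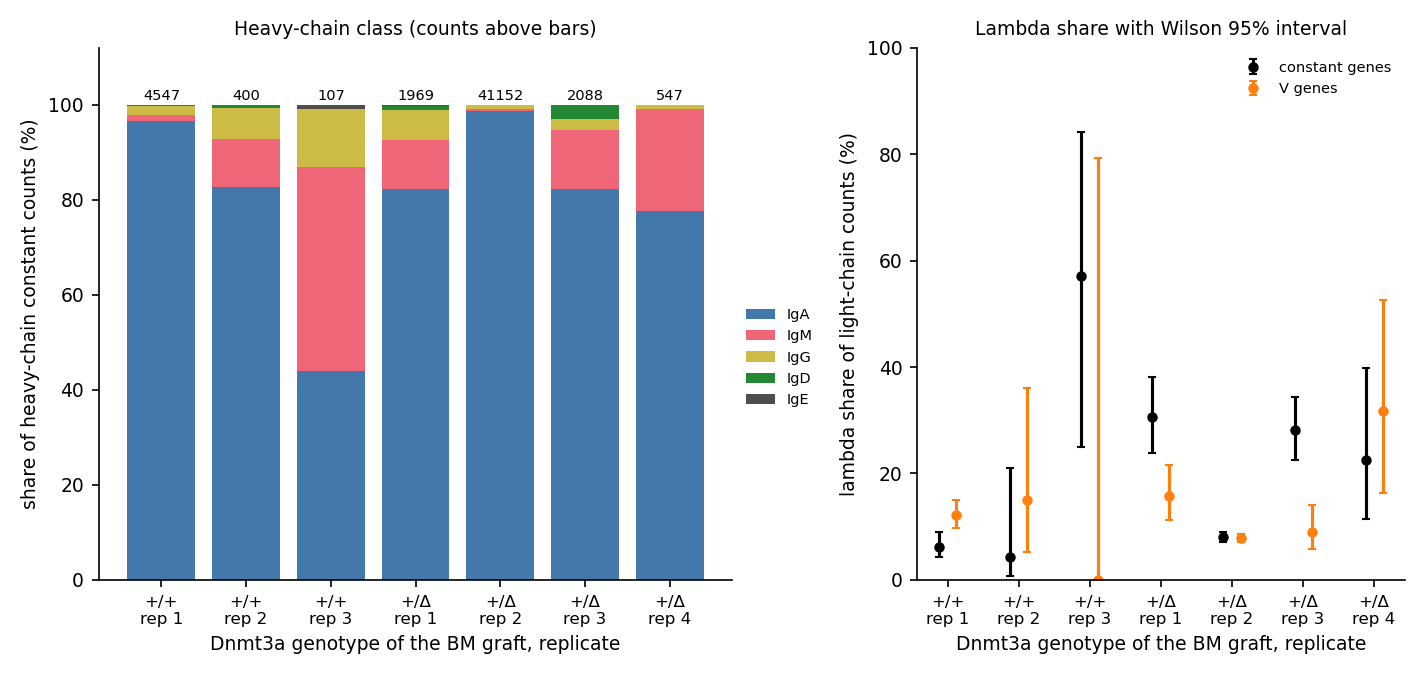
Left, share of heavy-chain constant counts (%, axis from 0) taken by each class in each tumor, with the number of counts above each bar. Right, lambda share of light-chain counts (%) from constant genes (black) and V genes (orange) with Wilson 95% intervals. IgA fills 77.7% to 98.6% of each bar but 1, Dnmt3a+/+ replicate 3 at 43.9%, and the widest lambda intervals belong to tumors with few light-chain counts.

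How few V genes carried each tumor's counts could be read only where V counts were numerous enough. Heavy-chain V counts were 372, 18 and 4 in the Dnmt3a+/+ tumors and 121, 3361, 115 and 27 in the Dnmt3a+/Δ tumors, and kappa V counts were 543, 17 and 1 against 160, 4669, 170 and 15. At least 100 counts of each kind were present in 4 tumors, Dnmt3a+/+ replicate 1 and Dnmt3a+/Δ replicates 1, 2 and 3. The other 3 tumors had between 1 and 27 counts per locus, so that the share of their leading V gene is set by a few reads.

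In the 4 tumors with at least 100 counts, no single heavy-chain V gene held the majority. The leading gene was Ighv1-64 in Dnmt3a+/+ replicate 1 with 15.9% (59 of 372 counts, Wilson 95% interval 12.5% to 19.9%). Ighv3-8 and Ighv5-17 led in Dnmt3a+/Δ replicate 1 with 12.4% each (15 of 121 counts, 7.66% to 19.4%). Ighv5-17 led in Dnmt3a+/Δ replicate 2 with 10.8% (364 of 3361 counts, 9.82% to 11.9%), and Ighv1-26 led in Dnmt3a+/Δ replicate 3 with 15.7% (18 of 115 counts, 10.1% to 23.4%). The leading gene thus differed between Dnmt3a+/+ replicate 1 and each of the other 3, and the 4 leading shares lay between 10.8% and 15.9%. Half-way through the counts, at 50%, lay 6, 7, 10 and 7 genes in the same order of tumors. The effective number of V genes (the inverse Simpson index, which equals the number of genes if all had equal counts) was 15.9, 17.7, 24.1 and 16.2. Since detection rises with counts, the number of genes expected in a draw of 100 counts was also computed, and it was 29.5, 32.7, 37.2 and 29.0 of 113.

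Kappa V genes were spread to a like degree, with Dnmt3a+/Δ replicate 3 the most uneven. Igkv8-21 led in Dnmt3a+/+ replicate 1 with 9.39% (51 of 543 counts), and Igkv1-133 in Dnmt3a+/Δ replicate 1 with 12.5% (20 of 160 counts). Igkv1-117 led in Dnmt3a+/Δ replicate 2 with 15.1% (703 of 4669 counts), and Igkv1-110 in Dnmt3a+/Δ replicate 3 with 19.4% (33 of 170 counts). The 5 leading kappa genes together held 34.99%, 36.2%, 42.8% and 56.5% in these tumors. It took 8, 8, 8 and 4 genes to reach 50% of kappa V counts. The effective number was 22.9, 21.1, 18.11 and 10.9, and a draw of 100 counts would hold 33.5, 34.6, 32.2 and 27.9 of the 97 genes. With 1 Dnmt3a+/+ tumor at this depth, these values have no replicate check between groups.

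**Figure D3:**
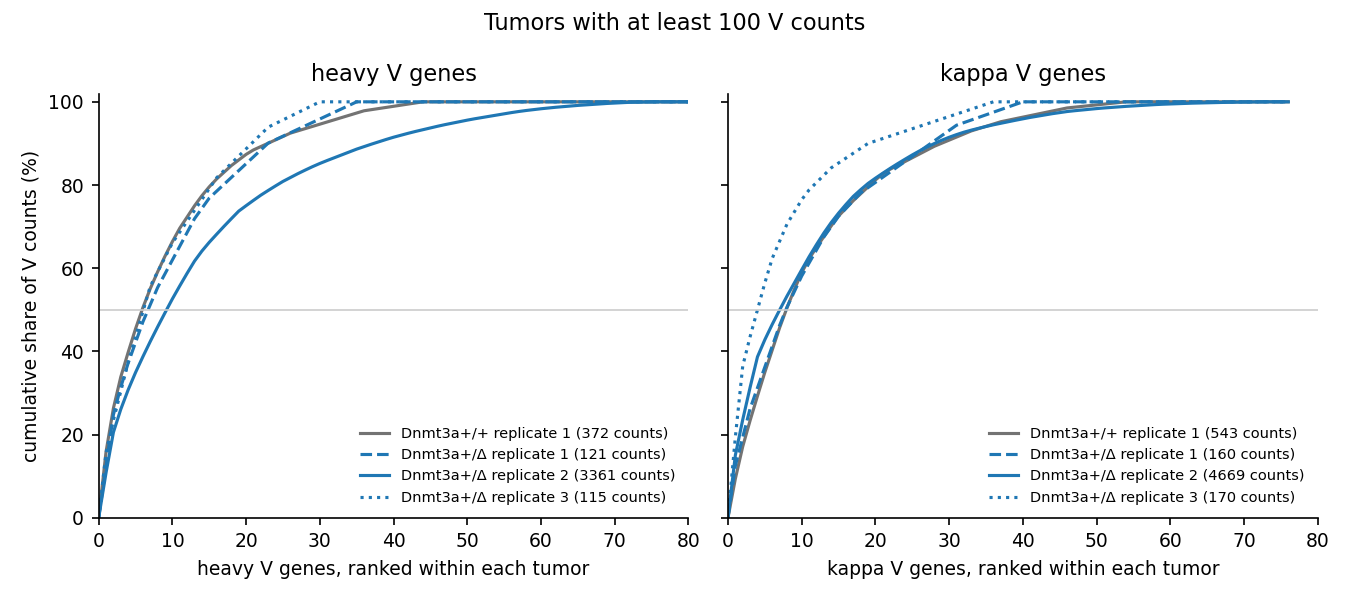
Cumulative share (%) of heavy-chain (left) and kappa (right) V counts against the V genes ranked by counts within each tumor, for the 4 tumors with at least 100 counts (grey, Dnmt3a+/+ replicate 1, and blue, Dnmt3a+/Δ replicates 1 to 3), with a line at 50%. The heavy-chain curve of Dnmt3a+/Δ replicate 2 rises slowest, with 10 genes at 50%, and the kappa curve of Dnmt3a+/Δ replicate 3 rises fastest, with 4 genes.

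Over all 7 tumors, the share of the leading heavy-chain V gene was 16.2% ± 6.79 (SD, n = 4) in Dnmt3a+/Δ tumors and 27.5% ± 19.5 (SD, n = 3) in controls, where the 50% of Dnmt3a+/+ replicate 3 was 2 of 4 counts. The exact permutation test gave p = 0.343 (adjusted 0.686). For kappa the shares were 16.7% ± 3.59 (SD, n = 4) and 44.3% ± 48.7 (SD, n = 3; exact permutation test, p = 0.257, adjusted 0.686), and the 100% of Dnmt3a+/+ replicate 3 was 1 count. Without that tumor, the kappa difference of -27.6 percentage points turned to 0.281, and the heavy-chain difference of -11.3 shrank to -0.0622. A difference in the leading share was therefore not detectable at this depth.

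Some V genes recurred between tumors and others stood in 1 tumor. Of the 79 heavy-chain V genes with counts in any of the 4 tumors, 12 had counts in all 4 and 19 in exactly 1, of which 17 were seen in Dnmt3a+/Δ replicate 2, the tumor with 83.6% of all heavy-chain V counts. Of 76 kappa genes, 23 had counts in all 4 tumors and 15 in exactly 1. Ighv5-17 held 0.806% in Dnmt3a+/+ replicate 1 (3 counts) and 12.4%, 10.8% and 6.96% in Dnmt3a+/Δ replicates 1 to 3 (15, 364 and 8 counts). It had 1 count in Dnmt3a+/+ replicate 2 and 0 in Dnmt3a+/+ replicate 3 and Dnmt3a+/Δ replicate 4. With 1 control tumor at this depth, that difference was not tested. Ighv4-1 held 9.73% in Dnmt3a+/Δ replicate 2 (327 counts) and at most 2 counts in every other tumor. Likewise, Igkv2-137 held 363 counts, 7.77%, in Dnmt3a+/Δ replicate 2 and at most 2 counts elsewhere. Igkv1-133 held 20 counts in Dnmt3a+/Δ replicate 1, 27 in Dnmt3a+/Δ replicate 2 and 2 in Dnmt3a+/+ replicate 1. Ighv4-1, Igkv2-137 and Igkv8-30 were singled out after their values were seen.

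Igkv1-117 and Igkv1-110, the pair shown above, both had counts in each of the 4 tumors. Igkv1-117 held 31 counts (5.71%) in Dnmt3a+/+ replicate 1 and 11 (6.88%), 703 (15.1%) and 29 (17.1%) in Dnmt3a+/Δ replicates 1 to 3. Igkv1-110 held 18 (3.31%) against 11 (6.88%), 343 (7.35%) and 33 (19.4%). Together with the other genes of the Igkv1 family, 10 of the 97 kappa genes, they took 12.3% of kappa V counts in Dnmt3a+/+ replicate 1 and 27.5%, 25.1% and 42.9% in Dnmt3a+/Δ replicates 1 to 3. With 1 control tumor at this depth, that difference was not tested. By single gene, the log2 fold changes over all 7 tumors were 3.80 ± 2.26 (SE) for Igkv1-117 and 3.56 ± 1.85 (SE) for Igkv1-110, with edgeR adjusted p of 0.564 and 0.519 after Benjamini-Hochberg adjustment. Without Dnmt3a+/Δ replicate 2 they were 0.27 and 1.08, and without Dnmt3a+/+ replicate 1 they were 10.4 and 6.52. DESeq2 with the experiment in the model called Igkv1-110 (log2 fold change 4.42, adjusted p 0.0377) and without it did not (adjusted p 0.21). The other V genes with enough counts for the test were Ighv1-26 (log2 fold change 2.88 ± 1.95, adjusted p 0.609), Igkv3-12 (1.72 ± 2.14, adjusted p 0.814) and Iglv1 (1.68 ± 1.86, adjusted p 0.783). All 5 were highest in Dnmt3a+/Δ replicate 2, and the groups overlapped for each. With 1 tumor left out, the log2 fold changes of these last 3 ran from 2.35 to 5.61, from 1.09 to 8.10 and from 1.11 to 6.11, highest in each case without Dnmt3a+/+ replicate 1. All 3 had too few counts for the test once Dnmt3a+/Δ replicate 2 was left out.

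**Figure D4:**
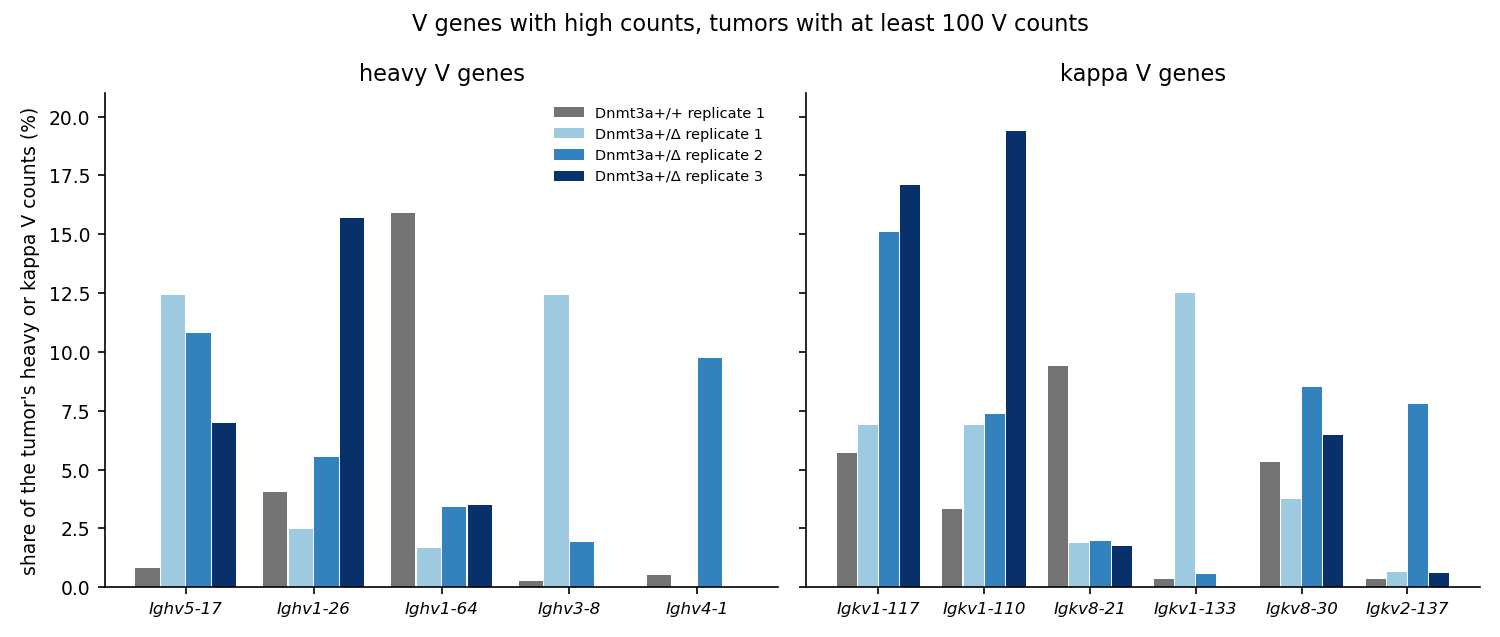
Share (%, axis from 0) of a tumor's heavy-chain (left) or kappa (right) V counts held by V genes with high counts, in the 4 tumors with at least 100 counts (grey, Dnmt3a+/+ replicate 1, and 3 blues, Dnmt3a+/Δ replicates 1 to 3). Ighv1-64 is tallest in Dnmt3a+/+ replicate 1 at 15.9%, and Ighv4-1 and Igkv2-137 stand out in Dnmt3a+/Δ replicate 2 at 9.73% and 7.77%.

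The heavy-chain V genes with counts were spread along their locus and over families. Ighv1, the largest heavy-chain family with 53 of 113 genes, held 61.8% of heavy-chain V counts in Dnmt3a+/+ replicate 1 and 56.2%, 49.6% and 55.7% in Dnmt3a+/Δ replicates 1 to 3, beside 46.9% of the genes. Ighv5, with 10 genes, held 10.8% against 22.3%, 18.18% and 11.3%. The 56 heavy-chain V genes nearest to Ighm held 39.2% of heavy-chain V counts in Dnmt3a+/+ replicate 1 and 47.1%, 57.1% and 43.5% in Dnmt3a+/Δ replicates 1 to 3. An in-frame cysteine codon within the last 30 bases of the V exon was present in 81 of 81 heavy-chain, 76 of 76 kappa and 2 of 3 lambda genes with counts. Among the genes at 0 in all tumors, 30 of 32 heavy-chain and 21 of 21 kappa genes held it. This measure thus hardly separated genes with counts from genes without, and whether the latter are otherwise intact was not tested. Some V genes are hard to tell apart by short reads: 7 heavy-chain pairs and 3 kappa pairs were at least 98% identical. Of these, only Ighv1-62-2 and Ighv1-71 had the same V exon sequence. Adding up the counts of such pairs moved the effective number of V genes by less than 1 in each of the 4 tumors.

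Jchain, a plasma cell gene outside the immunoglobulin loci, followed Igha across tumors. It encodes the J chain of dimeric IgA and had 68.9, 2.28 and 0.826 CPM in Dnmt3a+/+ replicates 1 to 3 and 12.7, 195.6, 18.08 and 8.57 CPM in Dnmt3a+/Δ replicates 1 to 4. On log2(CPM + 0.5) over the 7 tumors, Igha and Jchain had a Pearson r of 0.986 (exact permutation p = 0.000397, adjusted 0.000794 over 4 relations) and a Spearman rho of 0.964 (exact permutation p = 0.00278, adjusted 0.00556). For Igha and Igkc, r was 0.984 (exact permutation p = 0.000397, adjusted 0.000794) and rho 0.964 (exact permutation p = 0.00278, adjusted 0.00556). Leaving out the 2 tumors farthest from the median of Igha, r was 0.965 with Jchain and 0.987 with Igkc. Within BMT18 (4 tumors) and BMT8 (3 tumors), too few for a test, the tumors came in 1 order for all 3 genes. Ighm did not follow Igha in the same way, with r = 0.486 (exact permutation p = 0.273, adjusted 0.273) and rho = 0.536 (exact permutation p = 0.236, adjusted 0.236), and r was 0.428 without the 2 farthest tumors. Within the experiments, rho of Igha and Ighm was 0.4 in BMT18 and 1 in BMT8.

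**Figure D5:**
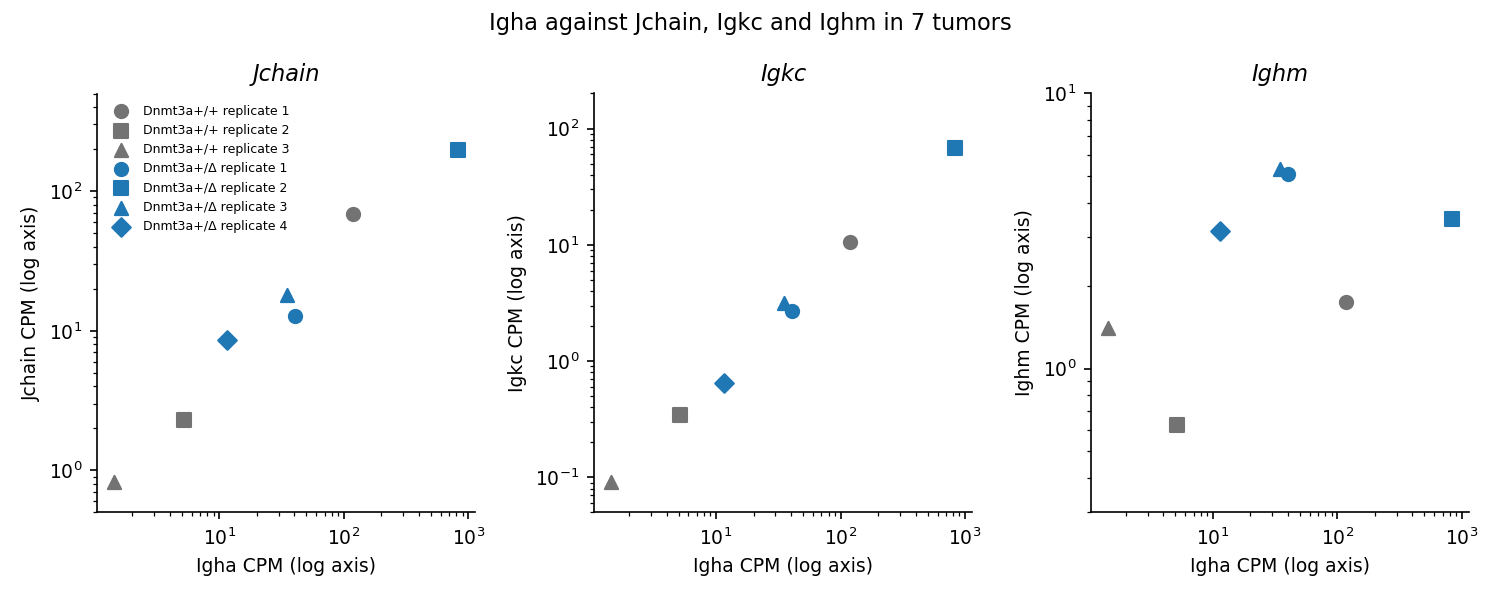
CPM of Jchain, Igkc and Ighm (log axes) against CPM of Igha (log axis), 1 symbol per tumor, grey for Dnmt3a+/+ BM and blue for Dnmt3a+/Δ BM. Jchain and Igkc follow Igha over all 7 tumors (r = 0.986 and 0.984), whereas Ighm does not follow it (r = 0.486) and is higher in each blue than in each grey symbol.

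B cell genes had another order of tumors. Cd79a, a part of the B cell receptor, had 0.699, 0.0625 and 0.122 CPM with Dnmt3a+/+ BM and 1.10, 1.26, 2.40 and 0 CPM with Dnmt3a+/Δ BM. Ms4a1, which encodes CD20, and Cr2, a complement receptor of mature B cells, were both highest in Dnmt3a+/Δ replicate 3, at 1.67 and 1.16 CPM, as were Ighm and Ighd. Pax5, which sets B cell identity, stayed at or below 0.142 CPM. The B cell list of 14 genes summed to between 3.12 and 10.6 CPM with Dnmt3a+/+ BM and between 5.79 and 16.4 CPM with Dnmt3a+/Δ BM, with Cd72 its largest member in each of the tumors. Of the 7 list members tested, edgeR called 0, and 2 reached an unadjusted p under 0.05 in the higher direction, Cd22 and Cxcr5, where 5.83% of all genes tested did. For Ighm and Cd79a, r was 0.715 (exact permutation p = 0.073, adjusted 0.0973) and rho 0.75 (exact permutation p = 0.0663, adjusted 0.0884), and r was 0.498 without the 2 tumors farthest from the median. The part of B cell content in the Ighm difference was not tested.

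The plasma cell list of 14 genes showed where it is shared with epithelium. Its sum, between 859 and 1439 CPM with Dnmt3a+/+ BM and between 834.9 and 1431 CPM with Dnmt3a+/Δ BM, was carried by Sdc1, Xbp1 and Txndc5, which colon epithelium also expresses. Mzb1, a chaperone of antibody-secreting cells, held 1.02, 0.0781 and 0 CPM against 0.449, 4.26, 0.406 and 0.108 CPM, in the same order of tumors as Igha within each group. Of 13 list members tested, edgeR called 0 and 0 reached an unadjusted p under 0.05, while DESeq2 called 0 and gave Jchain no p-value.

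The genes that act on antibodies were read next. Of the class switch and hypermutation enzymes, 7 could be tested and edgeR called 0 of them. The mismatch repair gene Msh6 (log2 fold change 0.49 ± 0.14, SE) and the break repair gene Trp53bp1 (0.51 ± 0.21, SE), which act in dividing cells of any kind, reached an unadjusted p under 0.05 in edgeR. Of the recombination and surrogate light chain genes, which belong to B cell development in the marrow, 1 of 7 could be tested, Vpreb1, between 0.0806 and 0.514 CPM. Among the signals for class switching and survival, Tnfsf13, which encodes the plasma cell survival factor APRIL, held 32.6, 32.0 and 43.3 CPM in the controls and 16.7, 9.29, 17.4 and 14.2 CPM with Dnmt3a+/Δ BM. The groups did not overlap, as for 6.32% of all genes tested in the lower direction, and the log2 fold change was -1.32 ± 0.25 (SE; edgeR adjusted p 0.361, DESeq2 adjusted p 0.00231, both after Benjamini-Hochberg adjustment). DESeq2 gave Cd40 and Il6 no p-value and called none of the others of the 8 that edgeR tested.

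Both receptors that carry antibodies across cells, Pigr and Fcgrt, had lower values in every tumor with Dnmt3a+/Δ BM than in any control. Of all genes tested, 6.32% did so. The 2 belong to a list of 9 antibody transport and Fc receptor genes, of which 6 had a positive log2 fold change and 3 a negative one. Pigr, the polymeric immunoglobulin receptor, ranged from 1722 to 3879 CPM in the controls and from 638.9 to 1472 CPM with Dnmt3a+/Δ BM, and Fcgrt, the neonatal Fc receptor, from 60.4 to 60.8 CPM against 22.2 to 35.8 CPM. Both had an unadjusted p under 0.05 in edgeR, as had 5.20% of all genes tested in the lower direction, and neither was called (adjusted p 0.377 and 0.361 after Benjamini-Hochberg adjustment), and DESeq2 called Fcgrt (adjusted p 0.00135) and not Pigr (adjusted p 0.0701). Of the 6 epithelial genes, 5 had a negative log2 fold change, with a median over the 6 of -0.53 beside 0.0025 over all genes tested. Lgals4 (log2 fold change -0.96) did not overlap between the groups, as for 6.32% of all genes tested in the lower direction. Cdx2 went the other way (log2 fold change 0.79, edgeR unadjusted p 0.0287). The part of the epithelial genes in the Pigr and Fcgrt values was not tested. Of 8 mucosal homing genes tested, 0 were called by edgeR or DESeq2, and Ccl28, the epithelial chemokine that draws IgA plasma cells, had a log2 fold change of -1.64 ± 0.67 (SE; edgeR adjusted p 0.435).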

How the data were processed

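Polyadenylated RNA of whole colon tumors was sequenced with a strand-keeping kit, 1 library per tumor, 7 tumors in all. Per the methods and the submitters' processing notes, the authors trimmed reads with Trimmomatic, aligned them to mm10 with STAR and estimated counts per gene with RSEM; the annotation release is not given in the sources used here. The deposited values are these counts as whole numbers, without normalization. RSEM assigns reads to annotated transcripts and divides those shared by similar genes, so V genes of near-equal sequence, hypermutated reads and reads across a V-to-constant join are the least certain. Of 43346 genes, 42462 matched GENCODE M21; the rest held 0.104% of counts. All columns were mapped to a tumor.

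The Dnmt3a+/Δ and Dnmt3a+/+ tumors entered 1 fit in edgeR 4.0.16 (R 4.3.3, TMM, filterByExpr, quasi-likelihood test, Benjamini-Hochberg adjustment over all 15810 genes, called at adjusted p under 0.05 and absolute log2 fold change over 1). DESeq2 1.42.0 was the alternative. It gave no p-value for 5 of the 11 immunoglobulin genes edgeR tested (Igha, Igkc, Igkv1-117, Igkv3-12 and Iglv1), nor for Jchain, Cd40 and Il6, which hold a count it marked as extreme. Simulated data, in which 200 of 15810 genes were changed, tested both: edgeR recovered 198 with 14 false calls, DESeq2 197 with 34. The simulation gave all genes the same dispersion and made large changes in well-counted genes only. It is therefore no measure of power for the immunoglobulin genes, whose summed share ranged over 424.9-fold between tumors. Of 6 class or V gene shares, the differences in means were tested over all 35 splits of the tumors (SciPy 1.17.1 for intervals and correlations). V exon sequences came from M21 transcripts. Named genes were all constant genes, the leading heavy-chain and kappa V gene of each tumor, lambda V genes, called V genes and the members of fixed lists. Some members of these lists are not reported here. Members and lists were chosen with earlier results of these data known. Other choices tried were scalings, filters, the experiment or replicate number in the model, each tumor left out, BMT18 alone, counts per length, log2 odds, and pooled near-identical V genes. No 2 libraries agreed within sampling noise (lowest chi-square per degree of freedom of 21 pairs, 92.2). The labels place each library in a separate tumor but do not say which tumors shared a donor, so p-values measure the spread between tumors.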

Additional observations from a re-analysis of the deposited data

Results flagged for a closer look

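In the group of 4 tumors with Dnmt3a+/Δ BM, a value was marked where its gap to the nearest tumor exceeded Dixon's 95% critical value. Of 36 values examined, 19 were marked by this or the next rule, where chance marks about 1 in 20, or 1.8. The values are not independent, since most are genes of 1 tumor. Dnmt3a+/Δ replicate 2 stood above the other 3 tumors in Igha (827 CPM), Igkc (68.5 CPM), Ighg1 (4.40 CPM), Iglv1 (7.50 CPM), Igkv1-117 (14.3 CPM), Igkv1-110 (6.99 CPM), Igkv3-12 (2.77 CPM), Ighv1-26 (3.79 CPM) and Ighv5-17 (7.42 CPM). The same tumor stood apart in summed heavy-chain V counts (3361), kappa V counts (4669), lambda V counts (401) and the immunoglobulin share of all counts (0.131%), and in the plasma cell genes Jchain (195.6 CPM), Mzb1 (4.26 CPM) and Tnfrsf17 (0.306 CPM). Ighm, Ighg2b and Iglc2 were not marked in it.

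Dnmt3a+/Δ replicate 3 stood apart in Cr2 (1.16 CPM), and Dnmt3a+/Δ replicate 1 in Ighe (0.0749 CPM, from 3 counts where the other 3 tumors had 0).

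The lambda share of light-chain constant counts moved in opposite directions in the 2 experiments. In BMT18 both Dnmt3a+/Δ tumors lay above both controls, by 14.0 percentage points on average, and in BMT8 both lay below the 1 control, whose share rests on 7 counts. The difference between the experiments was not tested.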

How the results depend on the processing

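Of the Ig genes, edgeR called 0 under every edgeR alternative run. DESeq2 called 1 (Ighm), from 0 to 3 with a tumor left out (of 6 to 41 with an adjusted p, and 0.401% to 4.15% of all genes), and 5 with the experiment as covariate (2.92% of all genes). Leaving out 1 tumor moved the difference in IgA share from -4.45 to 21.8 percentage points, in IgM share from -15.3 to 5.46, in lambda share from -9.38 to 17.0, in the leading kappa V share from -45.0 to 0.281 and in immunoglobulin share from -0.000742 to 0.0423. The lambda difference was 14.0 percentage points in BMT18 alone, 0.69 as log2 odds and 7.11 from V genes. The leading kappa V share differed by 6.26 points over tumors with at least 100 V counts, a choice made after seeing the data, as were the DESeq2 fits that leave out a tumor or add the experiment. The mean effective number of V genes, 18.5 for heavy chains and 18.3 for kappa, is not on the scale of the genes expected in 100 counts (32.1 and 32.0, chosen after seeing the data) or in the lowest count (3.53 for heavy chains; kappa, at 1 count, gives no value). With 1 tumor left out, edgeR's log2 fold changes ran from -0.49 to 6.09 for Igha, -0.70 to 6.32 for Igkc, -0.84 to 5.20 for Jchain and -0.13 to 4.77 for Mzb1, lowest with Dnmt3a+/Δ replicate 2 and highest with Dnmt3a+/+ replicate 1 omitted. DESeq2 without Dnmt3a+/Δ replicate 2 gave -0.49, -0.70, -0.84 and -0.15 for these 4 genes, -1.45 for Igkv3-12 and -0.94 for Iglv1. Ms4a1 turned to -0.46 in BMT18 alone. The causes were not tested. Library size without TMM moved the median of all genes to 0.21 and Ighm to 2.00. Deviations of same-numbered tumors from their group means had correlations of 0.622, 0.131 and -0.083. Differently numbered tumors were not compared, so these values cannot decide whether the numbers pair the tumors. With the replicate block, the log2 fold change of Ighm was 1.97 and edgeR called 0 Ig genes.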
